A study of Mus musculus with 4 samples.

Results

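The positions described here are the cytosines that were read most often: rows of a deposited whole-genome bisulfite table, outside the mitochondrial genome, with more than 50 reads in each of 4 libraries. They number 154669 of the 4795059 non-mitochondrial positions with at least 5 reads in every library, and of 25374149 rows in the table. The members were chosen by their read counts alone, so the depths below are descriptions, whereas methylation levels were not part of the choice. Neighbouring members at most 1 kb apart were joined into 74364 clusters. They are called high-depth positions rather than repeats, because no repeat annotation was used here and some of them lie in genes such as Cd3e and Ikzf2.

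The DNA was taken from CD4+ T cells sorted from the spleens of NOD mice, which develop autoimmune diabetes spontaneously. The groups were OX40L-JAG1 Teff, PBS Teff, OX40L-JAG1 Treg and PBS Treg, with 1 library each. Mice received OX40L and Jagged-1 proteins, or PBS, once weekly for 3 weeks from the age of 6 weeks, and were sampled 1 week after the last dose, at 10 weeks. Effector T cells (Teff) were sorted as CD4+CD25- and regulatory T cells (Treg) as CD4+CD25hi. How many animals gave each library is not stated in the labels. With 1 library per group there is no spread between replicates, all intervals are 95% intervals for counting error only, and tests compare libraries, not treatments or cell types.

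Bisulfite sequencing reads a methylated cytosine as C and an unmethylated one as T, so the methylation level of a position is the share of its reads that stay C. Most CpG sites of mammalian DNA are methylated, whereas CpG-rich promoters and active enhancers are often not. Ribosomal RNA genes, satellites and some gene families exist in many copies in the mouse genome, of which an assembly holds few, and reads of all copies may be placed on those few. Treg cells are known for demethylated regions at Foxp3, Ikzf2, Ctla4 and Il2ra.

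The labels could be checked at those genes. Over the kept positions of the Foxp3 locus, the gene of the transcription factor that defines Treg cells, 64.9% of reads were methylated in OX40L-JAG1 Treg and 81.7% in OX40L-JAG1 Teff, and 70% in PBS Treg against 87.8% in PBS Teff. Ikzf2, which encodes Helios, had 53.8% in OX40L-JAG1 Treg and 80.1% in OX40L-JAG1 Teff, and 60.6% in PBS Treg against 83.9% in PBS Teff. All 6 of the Treg loci checked were lower in the Treg library than in the Teff library under both treatments.

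Promoter windows, from 250 bases before to 50 bases after a gene's start, show what surrounds some high-depth positions. Of 32851 such windows in the RefSeq table of GRCm38.p6, 105 held a high-depth position, or 0.320%, with 217 positions in all. The sequences below are printed 5′ to 3′ along the gene's strand and were chosen to show a tandem repeat, a short simple repeat, a mixed window and an unmethylated CpG-rich promoter. Capitals mark the cytosines that were high-depth positions. The windows are, in order, chr4:118547156-118547455 on the plus strand, chrX:133898380-133898679 on the minus strand, chr9:66975435-66975734 on the minus strand and chr5:41844266-41844565 on the minus strand.
Gm40237: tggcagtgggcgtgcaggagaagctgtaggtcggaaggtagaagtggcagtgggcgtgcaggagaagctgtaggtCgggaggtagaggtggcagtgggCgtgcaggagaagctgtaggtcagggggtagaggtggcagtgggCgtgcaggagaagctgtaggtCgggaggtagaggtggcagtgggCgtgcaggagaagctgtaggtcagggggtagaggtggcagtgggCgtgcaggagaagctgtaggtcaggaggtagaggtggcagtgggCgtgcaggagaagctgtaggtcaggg
Tspan6: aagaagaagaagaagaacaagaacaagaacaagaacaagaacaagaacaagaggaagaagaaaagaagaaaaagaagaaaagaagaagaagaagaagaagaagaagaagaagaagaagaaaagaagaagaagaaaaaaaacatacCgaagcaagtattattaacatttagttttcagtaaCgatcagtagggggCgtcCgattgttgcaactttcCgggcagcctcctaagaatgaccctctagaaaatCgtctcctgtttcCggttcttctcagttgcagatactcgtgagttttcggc
Lactb: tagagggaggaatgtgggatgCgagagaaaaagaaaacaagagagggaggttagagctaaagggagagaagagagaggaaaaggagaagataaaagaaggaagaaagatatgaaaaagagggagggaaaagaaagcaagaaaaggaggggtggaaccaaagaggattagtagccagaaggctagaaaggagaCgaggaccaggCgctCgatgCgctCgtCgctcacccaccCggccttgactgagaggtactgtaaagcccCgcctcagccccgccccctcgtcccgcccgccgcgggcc
Bod1l: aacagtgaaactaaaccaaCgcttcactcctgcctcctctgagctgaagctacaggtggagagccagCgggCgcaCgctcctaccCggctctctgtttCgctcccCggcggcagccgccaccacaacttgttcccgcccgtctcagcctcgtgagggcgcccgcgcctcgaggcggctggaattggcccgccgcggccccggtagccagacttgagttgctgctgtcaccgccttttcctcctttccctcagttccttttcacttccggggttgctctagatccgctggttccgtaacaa

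The Gm40237 window, of a predicted gene, is a tandem repeat: 96.1% of its letters equal the letter 44 bases on. Its 7 high-depth positions had pooled levels of 82.0% in OX40L-JAG1 Teff, 82.7% in PBS Teff, 81.4% in OX40L-JAG1 Treg and 83.5% in PBS Treg. The Tspan6 window, upstream of a tetraspanin gene, opens with long runs of GAA units, and its 7 positions had 35.3%, 34.3%, 29.9% and 37.4% in the same order of libraries. Its difference in Treg was -7.55 points (95% Newcombe interval -12.6 to -2.44), and in Teff it was 0.99 (-3.77 to 5.78). A run of 4 GAA units, searched on both strands after these sequences were seen, occurred in 5 of the 105 windows, or 4.76%, and in 50 of all 32851, or 0.152%. Any unit of 2 to 6 letters repeated over at least 18 letters occurred in 7 of the 105, or 6.67%, and in 2.52% of all. A match describes the letters of a window and no more.

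The Lactb window, of a mitochondrial protein gene, held positions of very different levels. Its 9 positions ranged from 0 to 77.1% in OX40L-JAG1 Teff and from 0.625% to 80.2% in PBS Teff, and pooled levels were 25.6% and 23.1%. In Treg the pooled levels were 23.3% in OX40L-JAG1 Treg and 24.3% in PBS Treg. The 7 positions of Bod1l, a gene that protects stalled replication forks, were almost unmethylated, at 1.05% in OX40L-JAG1 Teff, 0.753% in PBS Teff, 0.714% in OX40L-JAG1 Treg and 1.26% in PBS Treg. Over the 105 windows, 15 had a mean level under 5%, 24 lay between 20 and 60%, and 28 were at 90% or more.

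Most high-depth positions were only moderately deep. The smallest count over the libraries had a median of 74 and was between 51 and 100 at 73.6% of them, over 200 at 4.53%, and over 500 at 1.20%. Median reads per position were 95 in OX40L-JAG1 Teff, 122 in PBS Teff, 78 in OX40L-JAG1 Treg and 84 in PBS Treg. The positions held 15.3% of the listed reads of OX40L-JAG1 Teff, 14.3% of PBS Teff, 20.9% of OX40L-JAG1 Treg and 16.7% of PBS Treg. Just inside the threshold, 5116 positions with a smallest count of 51 had pooled levels of 81.9%, 85.8%, 82.5% and 85.7% in that order of libraries. Just outside it, the 5426 positions with 50 had 80.9%, 84.9%, 81.4% and 84.6%.

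The clusters were mostly small. A single position made up 38540 of them, or 51.8%, and 4479 clusters held at least 5 positions, together 36981 positions or 23.9% of all. Those larger clusters spanned a median of 348 bases, with quartiles of 238.5 and 510. Only 15 held 100 positions or more, and the largest held 1902 over 57605 bases.

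Their places differed from those of the comparison rows, the 4393330 positions with 5 to 50 reads in every library. Unplaced scaffolds carried 4073 high-depth positions, or 2.63%, against 0.0693% of the comparison rows. On scaffold JH584304.1, 80.8% of the kept positions were high-depth, and on GL456392.1 79.1% were. On chromosome X 4.05% of kept positions were high-depth, and on the autosomes between 2.85% (chromosome 14) and 3.78% (chromosome 17). The 100 kb next to a chromosome's first kept position held 1.23% of the high-depth positions and 0.0781% of the comparison rows. Of the positions on assembled chromosomes, 39.5% of the high-depth set and 47.3% of the comparison rows lay in an annotated gene.

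The listing of the base next to a member, which at a CpG is mostly the cytosine of the opposite strand, varied with depth. An adjacent position was itself high-depth for 3.50% of the high-depth positions. An adjacent position had at least 5 reads in every library for 8.59% of them, against 8.58% of the comparison rows. It was listed in any library for 38.5% of them, against 60.3% of the comparison rows. Of the 1851 positions with more than 500 reads in each library, 97.9% had an adjacent position with at least 5 reads in every library, and of those with 51 to 100 reads 6.35% did.

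High-depth positions were methylated at high levels, with fewer at the top and bottom ends than the comparison rows. A mean level of 95 to 100% over the libraries was found at 28.8% of them and at 36.3% of the comparison rows. Levels under 5% were found at 2.03% of them and at 3.07% of the comparison rows. Levels of 20 to 40% were found at 2.87% of them and at 2.05% of the comparison rows, and levels of 40 to 60% at 5.09% and 4.59%. The comparison rows had a median of 10 reads in OX40L-JAG1 Teff, and levels from few reads spread further towards 0 and 100%. These shares therefore cannot be read as a difference in methylation. Within clusters of at least 5 positions, the SD among positions had a median of 8.58 points in OX40L-JAG1 Teff, 5.90 in PBS Teff, 8.22 in OX40L-JAG1 Treg and 6.46 in PBS Treg. This SD includes counting error, which depends on reads and level, and the libraries differ in both. It therefore cannot be read as a difference in how alike the positions are.

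**Figure D1:**
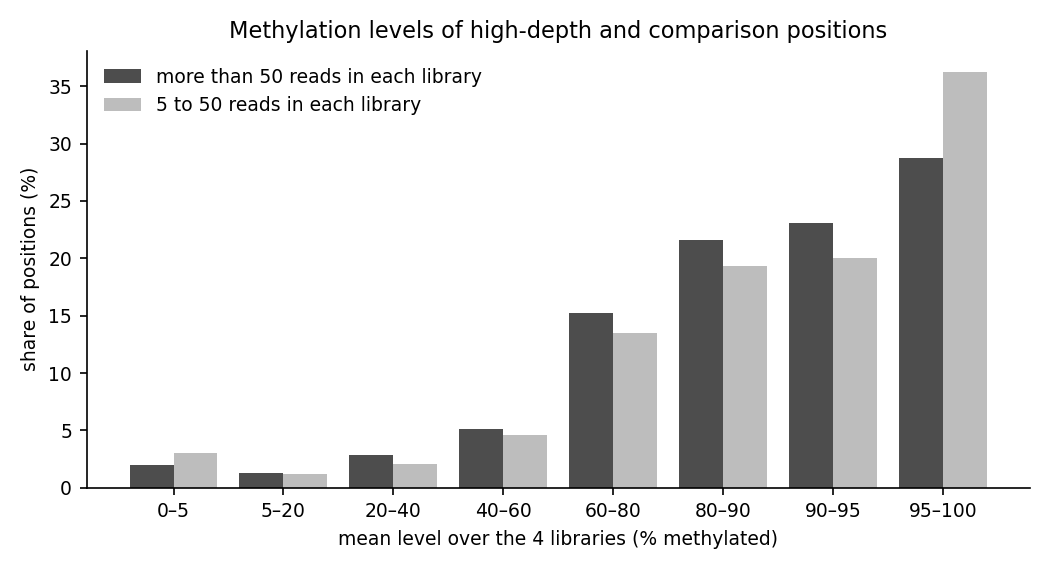
Share of positions (%) by their mean methylation level over the 4 libraries, for the 154669 positions with more than 50 reads in each library (dark bars) and the 4393330 with 5 to 50 (light bars). The class of 95 to 100% holds 28.8% of the first set and 36.3% of the second. Levels from few reads spread further towards 0 and 100%.

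The design asks how methylation differed between OX40L-JAG1 and PBS mice. Pooled over the high-depth positions, 81.5% of reads were methylated in OX40L-JAG1 Teff and 84.4% in PBS Teff, a difference of -2.89 points (95% Newcombe interval -2.91 to -2.87). In Treg the levels were 82.2% with OX40L-JAG1 and 84.1% with PBS, a difference of -1.97 points (-1.99 to -1.94). The comparison rows differed by -3.79 points in Teff and -2.99 in Treg. The pooled fall at the high-depth positions was therefore smaller by 0.893 points in Teff and 1.03 in Treg.

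That order depended on the weighting. With each position weighted equally, the high-depth positions averaged -4.01 ± 6.48 points in Teff and -3.06 ± 6.12 in Treg (SD over positions), and their contrasts with the comparison rows were -0.284 and -0.142. With each cluster weighted equally, but the comparison rows still weighted by position, the contrasts were -1.05 and -0.755. Position differences were below 0 at 74.0% of the high-depth positions in Teff and at 68.4% in Treg. Of the comparison rows, whose median difference was 0, 46.7% and 41.0% were below 0, and of all kept positions 48.7% and 42.9%. This share rises with depth and cannot be read as a wider fall. In Teff it was 42.9% at smallest counts of 5 to 9 and 69.5% at 40 to 50, with means of -3.69 and -3.93 points. In Treg it was 37.3% and 64.2%, with means of -2.89 and -3.10. The mean over high-depth positions was below 0 on each of the 20 chromosomes counted, the autosomes and X. It lay between -4.60 and -3.39 points in Teff and between -3.77 and -2.42 in Treg. The mean over comparison rows was also below 0 on each of these chromosomes. That mean lay between -4.52 and -3.29 points in Teff and between -3.72 and -2.46 in Treg.

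The pooled contrast rested on the deepest 1851 positions. At smallest counts of 51 to 200 the pooled difference lay between -4.21 and -4.11 points in Teff and between -3.18 and -2.93 in Treg, and above 200 and up to 500 reads it was -3.68 and -1.59. Over 500 reads it was -0.0733 (-0.108 to -0.0384) in Teff and -0.00797 (-0.0446 to 0.0287) in Treg. Levels of those positions were 85.6% in OX40L-JAG1 Teff, 85.7% in PBS Teff, 85.4% in OX40L-JAG1 Treg and 85.4% in PBS Treg. Without them the contrast with the comparison rows was -0.367 in Teff and -0.00207 in Treg.

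The libraries also became alike in depth there. In the whole table the listed reads numbered 159291553 in OX40L-JAG1 Teff, 208402911 in PBS Teff, 103584075 in OX40L-JAG1 Treg and 131555634 in PBS Treg. At the 335 positions with more than 5000 reads in each, the median was 9174 in OX40L-JAG1 Teff, 10782 in PBS Teff, 9521 in OX40L-JAG1 Treg and 9120 in PBS Treg. The part of this in the small differences at those positions was not tested.

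**Figure D2:**
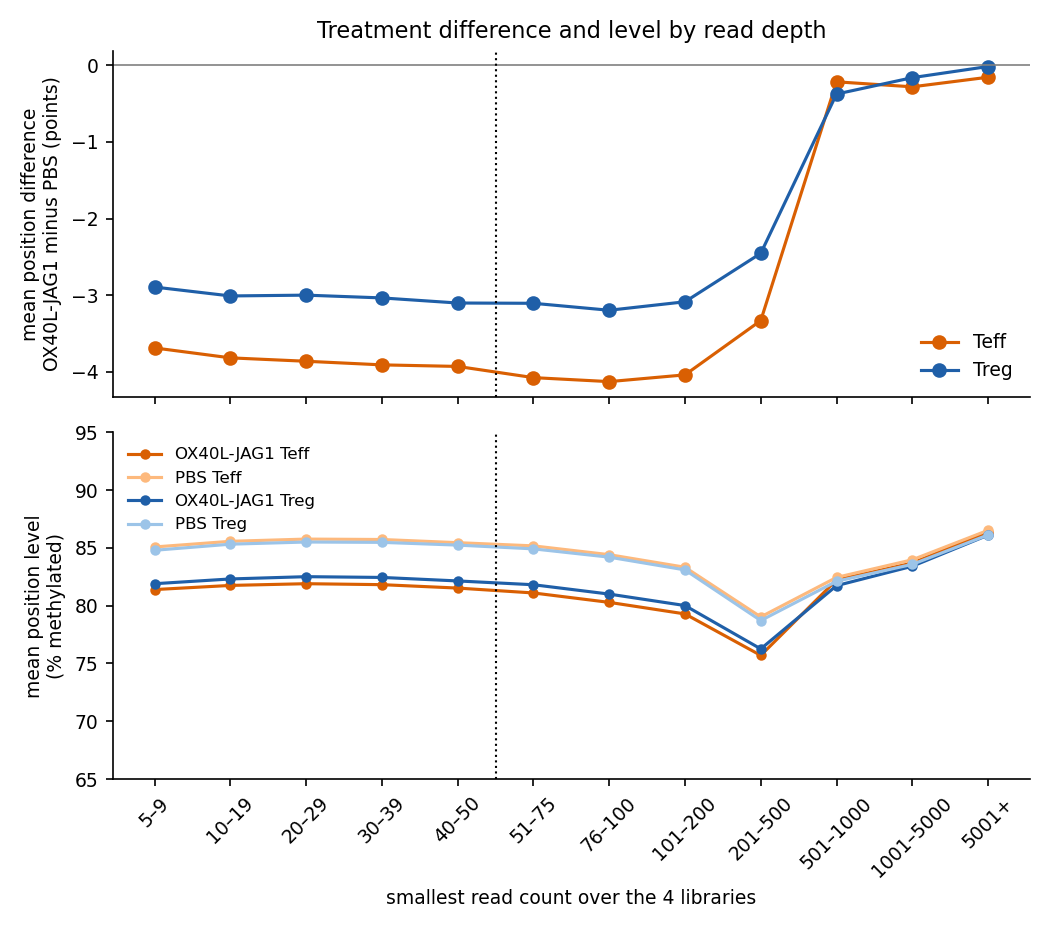
Mean over positions of OX40L-JAG1 minus PBS (percentage points, top) and mean level in each library (% methylated, bottom) by the smallest read count over the 4 libraries; the dotted line marks the threshold of 50. Differences stay near -4 in Teff and -3 in Treg up to 200 reads and lie close to 0 above 500.

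The difference also varied with the level. At high-depth positions with a mean level of 40 to 60% it was -9.10 points in Teff and -6.90 in Treg, against -9.93 and -7.98 in the comparison rows. At 95 to 100% it was -0.776 and -0.595, against -0.544 and -0.272 in the comparison rows. Under 5% it was 0.0476 and 0.0730, against -0.00781 and -0.0399. The classes were cut on the mean level over the same libraries, which keeps differences small at either end of the scale. Levels from few reads also sort rows into classes less exactly. The values of the high-depth positions and the comparison rows therefore cannot be compared as a difference in methylation.

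Of the 1851 deepest positions, 86.9% lay in 3 clusters, on scaffold JH584304.1, at the start of chromosome 9 and on chromosome 2. The cluster at JH584304.1:56834-114438 held 1902 high-depth positions and had 84.3% methylated reads in OX40L-JAG1 Teff, 84.3% in PBS Teff, 84.3% in OX40L-JAG1 Treg and 84.0% in PBS Treg. Its differences were 0.00943 (-0.0542 to 0.0730) in Teff and 0.279 (0.211 to 0.346) in Treg. The rest of that scaffold did not share this. Clusters of 202, 366 and 203 positions that precede it differed by -4.66, -4.23 and -3.07 points in Teff and by -3.65, -3.19 and -2.00 in Treg.

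The cluster at chr9:3000031-3038257, within 5 kb of Mir101c, held 1307 positions. Its levels were 85.4% in OX40L-JAG1 Teff, 85.6% in PBS Teff, 85.1% in OX40L-JAG1 Treg and 85.2% in PBS Treg, with differences of -0.233 in Teff and -0.0673 in Treg. The deepest single positions lay in chr2:98662264-98667326, with up to 68043 reads in OX40L-JAG1 Teff, 68951 in PBS Teff, 68091 in OX40L-JAG1 Treg and 67810 in PBS Treg. The 130 positions there had pooled levels between 87.2% and 87.6% over the libraries, and differences of -0.220 in Teff and -0.0430 in Treg.

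The 10 deepest clusters did not all lie near 0. At chr9:35305242-35305583, in the predicted gene Gm33838, 20 positions differed by -0.300 and 0.0524 points in Teff and Treg, and at chr12:3109883-3110118 12 positions differed by -0.322 and -0.139. At chr6:103649055-103649288, in Chl1, a gene of a neural adhesion molecule, 8 positions differed by -0.0694 and -0.496, and at chr14:19415740-19419616 144 positions differed by -0.514 and -0.209. The 16 positions at chr6:47747961-47748485 differed by -0.776 and 0.135, with both intervals spanning 0.

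Larger differences were found at other deep places. At chr15:75085689-75086940, 22 positions with a median of 756 reads in OX40L-JAG1 Teff differed by -1.58 and -1.67 points in Teff and Treg. Within 5 kb of Gm12621 on chromosome 11, 2 positions had 77.3% in OX40L-JAG1 Teff and 86.4% in PBS Teff, a difference of -9.08 (-11.5 to -6.69), and 80.9% in OX40L-JAG1 Treg against 86.0% in PBS Treg, a difference of -5.09 (-7.74 to -2.42). On chromosome 13, 2 positions differed by -3.40 and -3.03, and the single deep position in Gm38415 on chromosome 8 by -2.17 (-5.18 to 0.666) and 2.75 (-0.587 to 6.27). At the less deep Sfi1, a centrosome gene, 238 positions in chr11:3184275-3200013 with a median of 137 reads in OX40L-JAG1 Teff differed by -3.92 and -3.05. Levels at Sfi1 were 68.2% in OX40L-JAG1 Teff, 72.1% in PBS Teff, 69.0% in OX40L-JAG1 Treg and 72.1% in PBS Treg. On X, 152 positions in chrX:126766559-126782181 differed by 0.228 (-0.157 to 0.613) in Teff and by -2.11 (-2.57 to -1.65) in Treg.

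**Figure D3:**
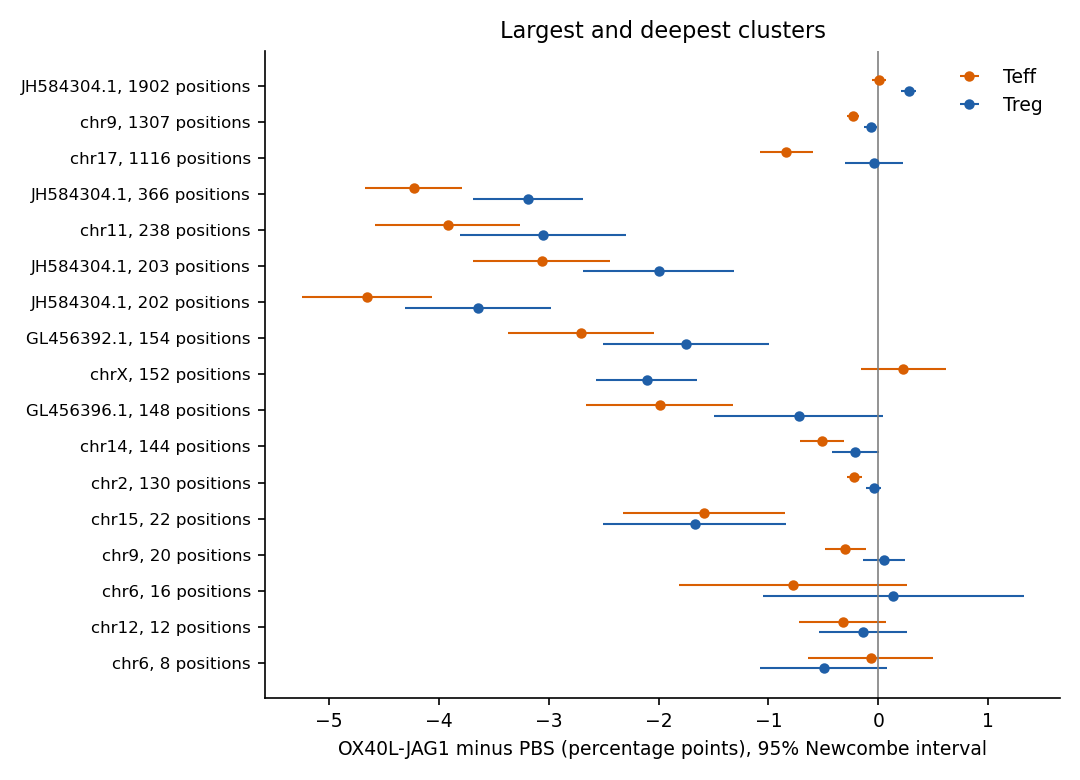
Pooled OX40L-JAG1 minus PBS difference (percentage points, with 95% Newcombe intervals for counting error) of the clusters with the most positions or the highest depth that hold at least 5 positions, in Teff and Treg. The 3 clusters that hold 86.9% of the positions over 500 reads lie near 0, and the 3 smaller JH584304.1 clusters lie between -4.66 and -2.00.

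Ribosomal RNA genes, which encode the RNA core of the ribosome, gave the only cluster below 60% among the 10 with the most positions. At chr17:39843053-39848763 the annotation holds Rn18s-rs5, a pseudogene of the 18S ribosomal RNA, and the long non-coding RNA AY036118. The 1116 positions there had 25.8% methylated reads in OX40L-JAG1 Teff, 26.6% in PBS Teff, 25.7% in OX40L-JAG1 Treg and 25.7% in PBS Treg. The differences were -0.837 (-1.08 to -0.597) in Teff and -0.0408 (-0.305 to 0.223) in Treg.

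Within Rn18s-rs5, 271 positions had 25.8%, 25.9%, 25.2% and 25.2% in OX40L-JAG1 Teff, PBS Teff, OX40L-JAG1 Treg and PBS Treg. Single positions there ranged from 15.2% to 43.0% in OX40L-JAG1 Teff and from 16.4% to 42.4% in PBS Teff. By 1-kb stretch, the largest difference in Teff was in the third, where 246 positions had 26.6% in OX40L-JAG1 Teff and 30.4% in PBS Teff, a difference of -3.75 points (-4.26 to -3.23), and in Treg it was -1.41 there. In Treg the largest was in the sixth, with 28.1% in OX40L-JAG1 Treg and 30.5% in PBS Treg, a difference of -2.44 (-3.42 to -1.47), and the second differed by 1.65. Single positions in the third stretch spread widely, from 11.4% to 45.05% in OX40L-JAG1 Teff and from 8.11% to 53.5% in PBS Teff. Of 73 ribosomal RNA genes in the annotation, 8 had a high-depth cluster within 5 kb, with 9 clusters and 1126 positions in all. All but 10 of these positions were those on chromosome 17.

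**Figure D4:**
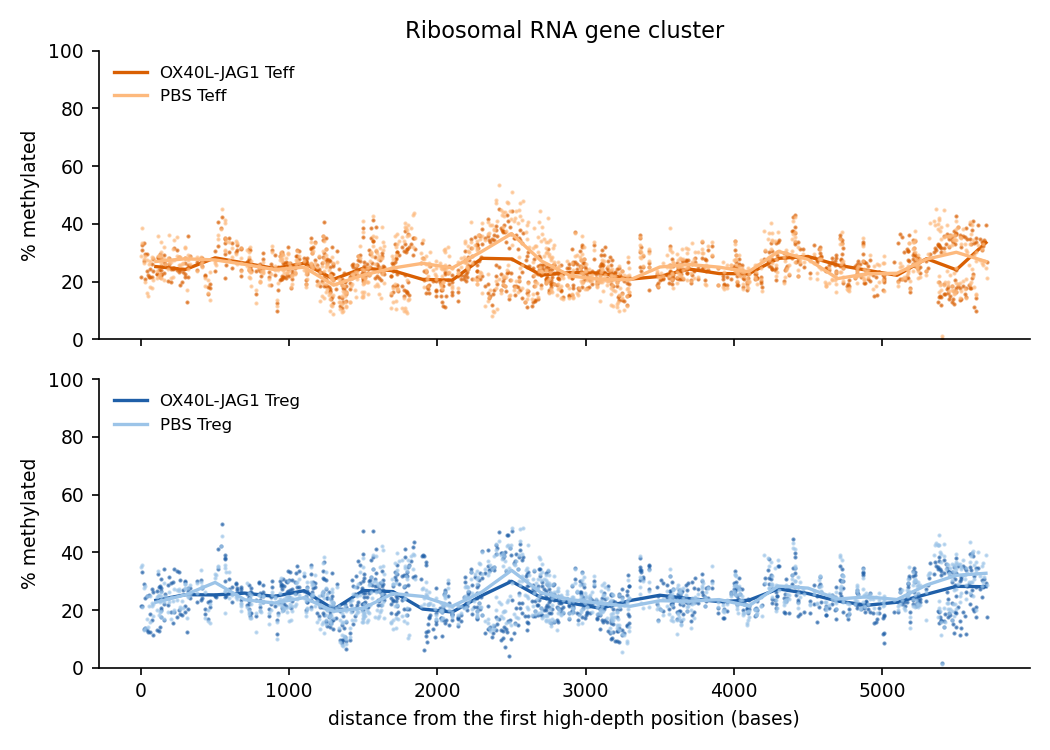
Methylation level (%) of the 1116 high-depth positions of the ribosomal RNA cluster against the distance in bases from its first position, with points for positions and lines for medians of 200-base bins. Both libraries of each cell type run near 25%, and PBS Teff lies above OX40L-JAG1 Teff in the third 1-kb stretch (30.4% against 26.6%).

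Other gene lists were described by their clusters. Of 671 T cell receptor and immunoglobulin genes, 114 had a cluster, and the 169 clusters had median differences of -4.08 points in Teff and -2.53 in Treg. For 2095 genes of tandem families such as olfactory and vomeronasal receptors, 742 had a cluster, and the medians were -4.53 and -3.77. For 564 repeated small RNA genes, 87 had a cluster, with medians of -2.76 and -1.16. Over all 74364 clusters the medians were -3.77 in Teff and -2.85 in Treg. The share of all annotated genes with a cluster was not computed, so the gene counts do not set any list apart.

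At the lowest levels stood clusters that were nearly unmethylated in every library. The 15 positions of chr1:24612493-24613310, at Gm10222, had 0.696% in OX40L-JAG1 Teff, 0.602% in PBS Teff, 0.777% in OX40L-JAG1 Treg and 0.639% in PBS Treg. The mitochondrial genome, left out by the rule, had 0.712%, 0.697%, 0.619% and 0.634% over 448 positions in the same order. Clusters at Zfp40, a zinc finger gene, at Jarid2, which encodes a partner of Polycomb repressive complex 2, and at Wdr76 were all at or under 0.75% in each library. At the highest levels, clusters at Srek1, a splicing regulator, and Naa25, a subunit of a protein acetyltransferase, had between 98.0% and 99.2%.

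Among the 4479 clusters of at least 5 positions, the treatment differences had a median of -2.35 points in Teff and -1.73 in Treg, with SDs over clusters of 3.37 and 2.89. They were below 0 in both cell types in 3189 clusters, or 71.2%, and above 0 in both in 316. Intervals excluded 0 on the lower side in both cell types in 896 clusters, on the higher side in both in 24, and in opposite directions in 8. Of all 74364 clusters, 64.9% were below 0 in both cell types. The interval counts over all clusters were 7303, 121 and 54 in the same order. Intervals narrow as reads increase, so these counts cannot be read as a wider fall in the larger clusters.

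The clusters that were most reduced lay in genes or in stretches with no gene within 5 kb. Rapgef1 encodes an exchange factor for the small GTPase Rap1. Its 9 positions at chr2:29631777-29632083 had 35.5% in OX40L-JAG1 Teff and 60.9% in PBS Teff, a difference of -25.4 points (-29.1 to -21.5), and 14.2% in OX40L-JAG1 Treg against 27.6% in PBS Treg, a difference of -13.3 (-17.1 to -9.53). The 5 positions at chr13:43769161-43769528, with no gene within 5 kb, had 44.6% in OX40L-JAG1 Teff and 79.1% in PBS Teff, and 7.86% in OX40L-JAG1 Treg against 11.3% in PBS Treg. Both places were lower in Treg than in Teff under each treatment. Of the gene-free clusters, 6 positions at chr7:28485744-28486251 had 55.3% in OX40L-JAG1 Teff and 81.0% in PBS Teff, and 52.1% in OX40L-JAG1 Treg against 69.8% in PBS Treg.

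Of the other most reduced clusters, 5 positions at chrX:104034025-104034154, with no gene within 5 kb, had 48.0% in OX40L-JAG1 Teff and 79.0% in PBS Teff, and 44.3% in OX40L-JAG1 Treg against 60.4% in PBS Treg. Cyth1, which encodes an activator of Arf GTPases, had 34.7% in OX40L-JAG1 Teff and 51.6% in PBS Teff, and 26.1% in OX40L-JAG1 Treg against 42.2% in PBS Treg. H3f3a, a gene of histone H3.3, had 35.1% and 45.2% in Teff and 30.1% and 46.2% in Treg, with OX40L-JAG1 given before PBS. Cabp4, of a calcium-binding protein, had 23.8% and 44.98% in Teff and 20.8% and 28.1% in Treg in that order. Coq3, of an enzyme of ubiquinone synthesis, had 71.2% and 75.4% in Teff, where the interval of the difference spanned 0 (-10.2 to 1.64), and 63.9% and 80.8% in Treg.

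Among the clusters that were most raised was one in Cd3e, which encodes a signalling chain of the T cell receptor complex. Its 5 positions at chr9:44999014-44999275 had 37.8% in OX40L-JAG1 Teff and 13.7% in PBS Teff, a difference of 24.1 points (20.1 to 28.1), and 53.5% in OX40L-JAG1 Treg against 38.7% in PBS Treg, a difference of 14.8 (9.72 to 19.8). In Teff, 4 of the 5 positions were called higher, by 23.2 to 33.0 points, and the fifth had 14.5% in OX40L-JAG1 Teff against 4.41% in PBS Teff.

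Ifngr1 encodes the ligand-binding chain of the interferon gamma receptor. Within 5 kb of it, 7 positions at chr10:19588903-19589120 had 80.2% in OX40L-JAG1 Teff and 55.0% in PBS Teff, and 90.4% in OX40L-JAG1 Treg against 79.5% in PBS Treg. Nr4a2 encodes a nuclear receptor induced by T cell receptor signals. Its 8 positions at chr2:57110747-57111111 had 41.0% in OX40L-JAG1 Teff and 22.1% in PBS Teff, and 53.6% in OX40L-JAG1 Treg against 47.6% in PBS Treg. Within 5 kb of Bcl6, a repressor needed by follicular helper T cells, 5 positions had 78.6% in OX40L-JAG1 Teff and 70.9% in PBS Teff, and 66.4% in OX40L-JAG1 Treg against 52.0% in PBS Treg. At the predicted gene Gm39843, 6 positions had 25% in OX40L-JAG1 Teff and 7.14% in PBS Teff, and 34.6% in OX40L-JAG1 Treg against 17.2% in PBS Treg.

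Cell type loci also differed between the OX40L-JAG1 and PBS libraries. Those of Cd3e, Cd3d, Cd3g and Cd4, which mark T cells, were all higher in the OX40L-JAG1 than in the PBS library of both cell types. So were those of Tcf7, Lef1, Satb1 and Bach2, which mark conventional T cells. The loci of Foxp3, Ikzf2, Il2ra, Ctla4, Ikzf4 and Tigit, which mark Treg cells, were all lower in the OX40L-JAG1 library of both cell types. Ctla4 had 63.1% in OX40L-JAG1 Teff and 81.4% in PBS Teff, and 23.1% in OX40L-JAG1 Treg against 34.6% in PBS Treg. Il2ra had 78.2% in OX40L-JAG1 Teff and 82.1% in PBS Teff, and 64.6% in OX40L-JAG1 Treg against 65.1% in PBS Treg. The Cd3e locus includes the 5 positions of the raised cluster above, which was named for its difference. Its rise is therefore not a separate observation. The whole Cd3d locus had 46.4% in OX40L-JAG1 Teff and 40% in PBS Teff, and 57.9% in OX40L-JAG1 Treg against 53.4% in PBS Treg. Tcf7 had 54.8% in OX40L-JAG1 Teff and 45.4% in PBS Teff, and 75.2% in OX40L-JAG1 Treg against 63.9% in PBS Treg.

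Loci of other cell types went both ways. Of the B cell loci, Cd79a had 77.1% in OX40L-JAG1 Teff and 77.1% in PBS Teff, Cd79b 68.1% and 70.4%, and Ms4a1 82.4% and 85.5%. In Treg, Cd79a had 75.4% with OX40L-JAG1 and 73.9% with PBS, Cd79b 71.4% and 76.8%, and Ms4a1 84.3% and 83.6%. Of the 4 myeloid loci, Spi1 was higher and Lyz2, Csf1r and Itgam were lower in OX40L-JAG1 Teff than in PBS Teff. In Treg, Csf1r was higher and Spi1, Lyz2 and Itgam were lower with OX40L-JAG1 than with PBS. The myeloid loci ranged from 73.4% to 84.7% in OX40L-JAG1 Teff and from 71.4% to 90.1% in PBS Teff, and from 79.8% to 86.5% in OX40L-JAG1 Treg against 80.8% to 88.1% in PBS Treg. All of these B cell and myeloid loci kept most of their methylation in every library. The part of the cell type loci and of cell makeup in the treatment differences was not tested. A change of makeup and a change within cells cannot be told apart here.

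**Figure D5:**
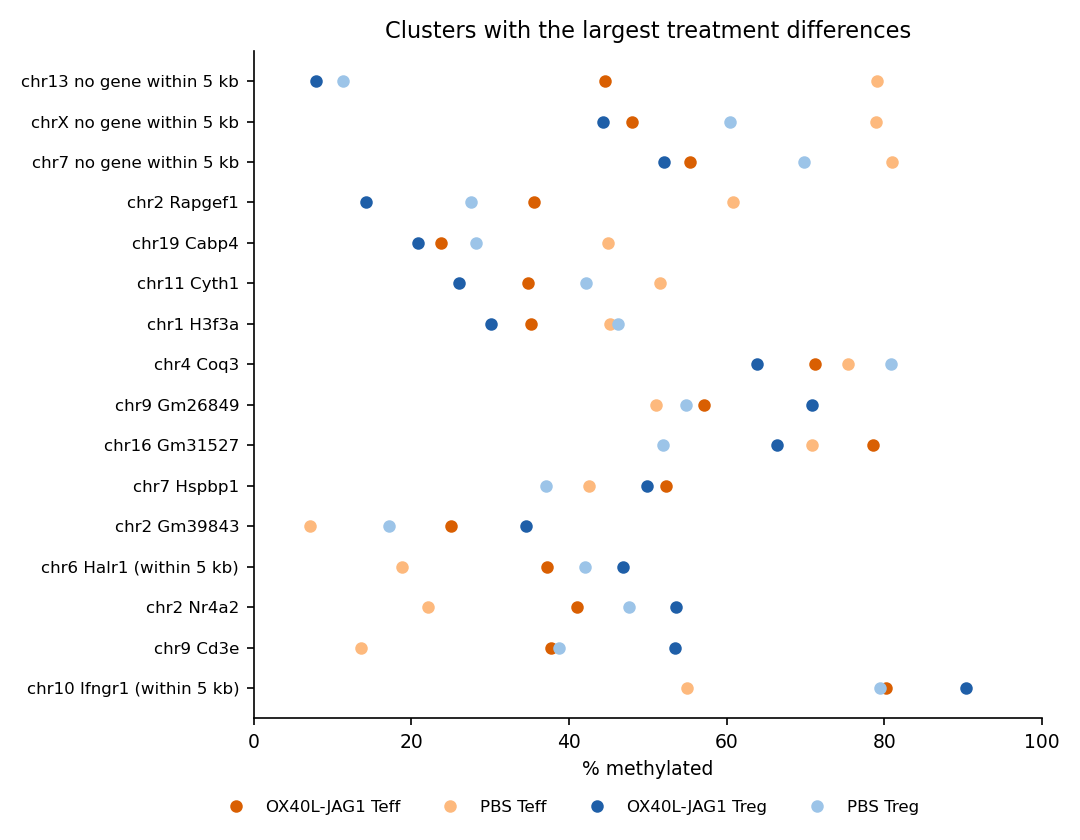
Pooled methylation level (%) in each of the 4 libraries of the clusters of at least 5 positions with the largest treatment differences in either cell type. In the upper 8 clusters, from chromosome 13 down to Coq3, the OX40L-JAG1 libraries lie left of the PBS libraries of the same cell type, and in the lower 8, which include Nr4a2 and Cd3e, they lie right of them.

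Single positions were called with a two-sided Fisher's exact test, at a Benjamini-Hochberg adjusted p under 0.05 over all 4795059 positions and a difference of at least 20 points. In Teff, 811 high-depth positions were called lower in the OX40L-JAG1 library, or 0.524%, where 0.0255% of all positions were. Called higher were 83, or 0.0537%, where 0.00302% of all were. In Treg, 15 were called lower, where 0.000313% of all positions were, and 2 higher, where 4.17e-05% were. The Treg calls at high-depth positions were all the Treg calls in the table.

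These shares cannot be set against those of shallower positions as a difference in methylation, because depth sets what can be called. In simulated reads at the real depths, a drop of 20 points was called at 48 of 200 high-depth positions in Teff and at 21 of 200 in Treg, and at 0 of 200 comparison positions in each. A drop of 40 points was called at 194 of 200 high-depth positions in Teff and at 167 of 200 in Treg, but at 7 and 0 of 200 comparison positions. Drops were simulated only at highly methylated positions, and 20 points is also the smallest difference that could be called. The simulation held more changed positions than the real Treg libraries gave calls, which makes the adjusted p easier to pass. Recovery in Treg may therefore be overstated. None of the positions over 500 reads was called in either direction in either cell type.

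The 811 lower calls in Teff fell in 754 clusters, and 313 of the calls lay in genes. That share is close to the 39.5% of all high-depth positions on assembled chromosomes that lay in a gene. Rapgef1 had 5, between -38.0 and -29.5 points, and Slamf1, a costimulatory receptor of lymphocytes, had 2, between -37.0 and -21.9. In both cell types 8 positions were called lower, where 0.000167% of all positions were, and 0 higher, where 0% were. These 8, named after their values were seen, include 1 in Ciita, the activator of MHC class II genes. It had 73.3% in OX40L-JAG1 Teff and 95.9% in PBS Teff, and 65.2% in OX40L-JAG1 Treg against 92.4% in PBS Treg. Another lay in Tbc1d12, a Rab GTPase-activating protein gene, with 27.8% in OX40L-JAG1 Teff and 82.6% in PBS Teff, and 12.5% in OX40L-JAG1 Treg against 52.2% in PBS Treg. Outside genes, position 62915437 on chromosome 17 had 33.6% in OX40L-JAG1 Teff and 77.2% in PBS Teff, and 34.5% in OX40L-JAG1 Treg against 68% in PBS Treg.

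The design also compared Treg with Teff. Pooled over the high-depth positions, PBS Treg lay -0.275 points from PBS Teff and OX40L-JAG1 Treg 0.651 points from OX40L-JAG1 Teff, close to the -0.295 and 0.497 of the comparison rows. In the PBS pair 179 high-depth positions were called lower in Treg, where 0.00943% of all positions were, and 194 higher, where 0.00751% were. In the OX40L-JAG1 pair 46 were called lower, where 0.00148% of all were, and 29 higher, where 0.00073% were. The same direction was called in both pairs, which share no library, at 42 lower positions (0.00119% of all) and 24 higher ones (0.000584% of all).

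The positions lower in Treg in both pairs included known Treg genes, here named after the calls were seen. The label check above already pooled the high-depth positions of these loci. They numbered 22 in Ikzf2, 10 in Il2ra, 9 in Ikzf4 and 2 in Ctla4. The calls are therefore not a separate observation from that check. Ikzf2 had 10 of the called positions. At its position 69670689 on chromosome 1, 20% of reads were methylated in OX40L-JAG1 Treg and 74.7% in OX40L-JAG1 Teff, and 17.5% in PBS Treg against 82.3% in PBS Teff. Ctla4, an inhibitory receptor, had 2, of which 1 had 6.13% in OX40L-JAG1 Treg and 66.7% in OX40L-JAG1 Teff, and 20.2% in PBS Treg against 86.8% in PBS Teff. Ikzf4, which encodes Eos, had 3, of which 1 had 2.17% in OX40L-JAG1 Treg and 46.9% in OX40L-JAG1 Teff, and 7.32% in PBS Treg against 54.1% in PBS Teff. Il2ra, which encodes the CD25 used for sorting, had 2, of which 1 had 13.0% in OX40L-JAG1 Treg and 62.9% in OX40L-JAG1 Teff, and 22.6% in PBS Treg against 70.6% in PBS Teff. Rapgef1 had 4, and the gene-free cluster on chromosome 13 also had 4.

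Of the 24 positions higher in Treg in both pairs, 1 lay in Lef1, the gene of a transcription factor of naive T cells, with 95.1% in OX40L-JAG1 Treg and 64.3% in OX40L-JAG1 Teff, and 96.1% in PBS Treg against 44.0% in PBS Teff. Scp2, which encodes a lipid transfer protein, had 2, of which 1 had 79.2% in OX40L-JAG1 Treg and 46.8% in OX40L-JAG1 Teff, and 75.7% in PBS Treg against 41.5% in PBS Teff.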

How the data were processed

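Genomic DNA of 4 cell samples was bisulfite converted (Zymo Lightning EZ) and sequenced from Kapa Hyper libraries, per the labels' protocols. The submitters' processing notes name Trimmomatic, Bismark and mm10. Their versions and any removal of duplicate reads are not given in the sources used here. Per the file headers, the authors' table holds the count of reads and the count of methylated reads at each cytosine in each library, and a level that runs as a fraction from 0 to 1. Nonzero deposited counts are at least 5, so listed totals are not sequencing depth. Levels were recomputed as methylated over total reads, and the deposited fraction was not used further.

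Kept positions had 5 or more reads in every library. Fisher tests, Benjamini-Hochberg adjustment and Newcombe intervals for differences (95%) were computed with Python 3.11.15, numpy 2.4.6, scipy 1.17.1 and numba 0.67.0. The Fisher tests and the adjustment were also tried on simulated reads, and the intervals were not. Intervals cover counting error only: neighbouring positions share reads, and reads without molecular identifiers are not independent molecules. Genes came from a RefSeq table of GRCm38.p6, with flanks of 5 kb, without strand or exons. Clusters named are the 10 with the most positions, the 10 deepest, and among those of at least 5 positions the 5 lowest and highest in level and in each treatment difference by the bound nearest 0, plus those at fixed gene lists; not all are described. Members, lists and tests were chosen with earlier results of these data known.

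Alternatives changed the read threshold, the distance that joins clusters, the weighting, the comparison rows, the read counts and the size required of a call. One marker locus and 1 cluster are not reported here.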

Additional observations from a re-analysis of the deposited data

Results flagged for a closer look

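Of the 4479 clusters of at least 5 high-depth positions, 8 had treatment differences in opposite directions in Teff and Treg, with both 95% intervals away from 0. Of the 8, 7 are described here. Among all 74364 clusters, 54 had such opposite intervals. The difference between the cell types was not tested, and each value rests on 1 library per group.

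The largest of these, 76 positions at chr16:57391269-57391633 in Cmss1 and Filip1l, had a difference of -2.06 points in Teff (24.9% in OX40L-JAG1 Teff, 27.0% in PBS Teff) and 5.58 in Treg (28.5% in OX40L-JAG1 Treg, 22.9% in PBS Treg). At Gphn, the gene of the synaptic scaffold gephyrin, 11 positions on chromosome 12 had -12.2 in Teff (28.0% in OX40L-JAG1 Teff, 40.1% in PBS Teff) and 5.82 in Treg (38.0% in OX40L-JAG1 Treg, 32.2% in PBS Treg). A cluster of 5 positions on chromosome 13, with no gene within 5 kb, had -7.42 in Teff and 11.8 in Treg. At Dnah14, a dynein heavy chain gene on chromosome 1, the values were -4.41 and 5.14 in that order of cell types. Clusters on chromosome 18 (-3.62 and 3.98), on chromosome 3 (-2.90 and 3.11) and in Gm20768 on chromosome 5 (-1.96 and 2.08) had the same pattern of signs.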

How the results depend on the processing

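The treatment difference of the high-depth positions stayed below 0 in both cell types under every alternative run, and no reversed value concerns it. In Teff (main value -2.89) it was -3.29 with more than 25 reads, -2.00 with more than 100, -3.19 without the cluster with the most positions, -3.19 on the assembled chromosomes, -4.78 with clusters weighted equally, -4.01 with positions weighted equally and -4.15 without positions over 500 reads. In Treg (-1.97) the values in that order were -2.38, -1.20, -2.23, -2.23, -3.68, -3.06 and -2.99. The last 2 alternatives were chosen after seeing the data. The contrast with the comparison rows reversed under the last 3: in Teff (0.893) it was 0.499, 1.79, 0.591, 0.594, -1.05, -0.284 and -0.367, and in Treg (1.03) 0.617, 1.79, 0.760, 0.760, -0.755, -0.142 and -0.00207. With comparison rows of 5 to 20 reads it was 0.839 and 0.976. Where clusters were weighted equally, the comparison rows were weighted by position, so the weighting was not the same on both sides. The 1851 positions over 500 reads, whose differences were near 0, weigh by their reads in the pooled value; other causes were not tested.

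Calls depended on depth. With all read counts divided by 3, lower calls in Teff numbered 1 instead of 811 and higher calls 1 instead of 83, and in Treg 0 and 0 instead of 15 and 2. With more than 100 reads required, 360 lower and 32 higher calls were left in Teff. Clusters numbered 185704 with more than 25 reads and 21740 with more than 100. Of 60 alternatives, 22 stayed within the limits set, 32 moved and 6 reversed. No paired analysis was possible because the groups hold 1 library each and so share fewer than 2 replicate numbers; cell types were not used as replicates of each other. No genome or repeat annotation was used, reads of many copies may be joined at a position, and duplicate reads may remain.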
